A study of Mus musculus with 7 samples.

Results

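The iron and heme carriers examined here are 9 mouse genes, chosen by name: transferrin (Trf), hemopexin (Hpx), ceruloplasmin (Cp), the transferrin receptors Tfrc and Tfr2, the iron importer Slc11a2, the iron exporter Slc40a1, the ferritin heavy chain Fth1 and the heme oxygenase Hmox1. They are 9 of the 27583 genes and unnamed probes on the array. All 9 were found, on 11 probes, and every one of these probes was well above background on all 7 arrays, with no saturated spot. The series set induced hepatocyte-like cells (iHep), made from embryonic fibroblasts, beside adult hepatocytes and the fibroblasts themselves (MEF), and measured RNA on Agilent 1-colour arrays. All cells had the C57BL/6 background. The iHep group had 3 arrays, 1 for each of the types labelled 4α1, 4α2 and 4α3, here called types 1, 2 and 3; as background, such cells were made by giving fibroblasts the liver factor Hnf4a and a Foxa factor by retrovirus, but the sources used here do not say what the last digit stands for. The hepatocyte group had 1 array, from adult livers, and the MEF group had 3 arrays, from embryos at 13.5 days post coitum. Because each iHep type has 1 array, the iHep spread is a spread between types, and nothing in the labels says how many cultures or animals stand behind an array.

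Hepatocytes secrete most of the plasma proteins that carry iron and heme. Transferrin carries ferric iron to cells, which take it up through Tfrc. Hemopexin binds free heme, and ceruloplasmin oxidises ferrous iron so that transferrin can bind it. Inside cells, Slc11a2 moves iron out of endosomes, ferritin stores it, Hmox1 releases it from heme, and Slc40a1 exports it. Hepatocytes also sense circulating iron, with Tfr2 among the sensors, and answer by secreting the hormone hepcidin, which closes the Slc40a1 exporter. Several of these messengers (Tfrc, Fth1, Slc40a1 and a form of Slc11a2) carry iron-responsive elements, so protein can change where RNA does not; the arrays read RNA alone.

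A level is the log2 signal of a probe less that array's 75th percentile, which therefore lies at 0, and levels of different probes are not compared. MEF 2 and MEF 3 differed by 0.507 to 0.92 times the spread between repeated spots and were counted as 1 sample, which leaves n = 2 for MEF. MEF 1 differed from MEF 2 by 3.86 to 4.54 times that spread. MEF 1 and the 3 iHep arrays were on slide 1, MEF 2 and MEF 3 on slide 2 and the hepatocyte array on slide 3, so hepatocyte and slide cannot be told apart. The cell labels were checked on marker genes. The summed level of 7 hepatocyte markers, in units of the 75th percentile, was 418, 673 and 192 in iHep types 1, 2 and 3, 2745 in hepatocytes and 0.130 to 0.144 in MEF, and Cyp2e1 failed to rise well above background in all 3 iHep types. Albumin (Alb) stood at 6.46, 7.92 and -0.21 in iHep types 1, 2 and 3, 9.95 in hepatocytes and -8.32 to -7.63 in MEF. Its hepatocyte reading was saturated, so 9.95 and the hepatocyte sum of 2745 are lower limits. The summed level of 8 fibroblast markers was 76.9 to 137 in iHep, 2.05 in hepatocytes and 998 to 1006 in MEF. The 4 bile duct markers summed to 158 to 186 in iHep, 1.11 in hepatocytes and 4.07 to 4.19 in MEF.

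Between iHep and MEF, 5 of the 9 genes were higher in iHep (Trf, Hpx, Cp, Slc11a2 and Fth1) and 0 were lower, at an adjusted p under 0.05 in limma with Benjamini-Hochberg adjustment over all 19135 genes tested. Of all genes tested, 10.1% were called higher, 13.2% lower and 23.3% in either direction. Between hepatocytes and MEF, 5 genes were higher in hepatocytes (Trf, Tfr2, Hpx, Cp and Fth1) and Hmox1 was lower, where 28.4% of all genes were called higher, 25.1% lower and 53.5% in either direction. Between iHep and hepatocytes, 2 genes were higher in iHep (Slc11a2 and Hmox1) and 3 were lower (Tfr2, Hpx and Slc40a1), where 22.1% of all genes were called higher, 27.1% lower and 49.2% in either direction. In both comparisons with hepatocytes around 1 in 2 of all genes was called, so the 6 and 5 calls among these 9 are read against that share. The median log2 difference of the 9 genes was 0.98 for iHep minus MEF, 2.85 for hepatocyte minus MEF and -0.92 for iHep minus hepatocyte, beside -0.04, 0.145 and -0.17 over all genes tested. Slc11a2, by the probe that stands for it, passed the test between iHep and each of the other groups. Hpx was the 1 gene that passed in every comparison. With MEF 1 as the only fibroblast sample, on the slide of the iHep arrays, 2 of the 9 genes (Hpx and Cp) were called between iHep and MEF. That number was also 2 without MEF 1, and 3 without iHep type 1.

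**Figure D1:**
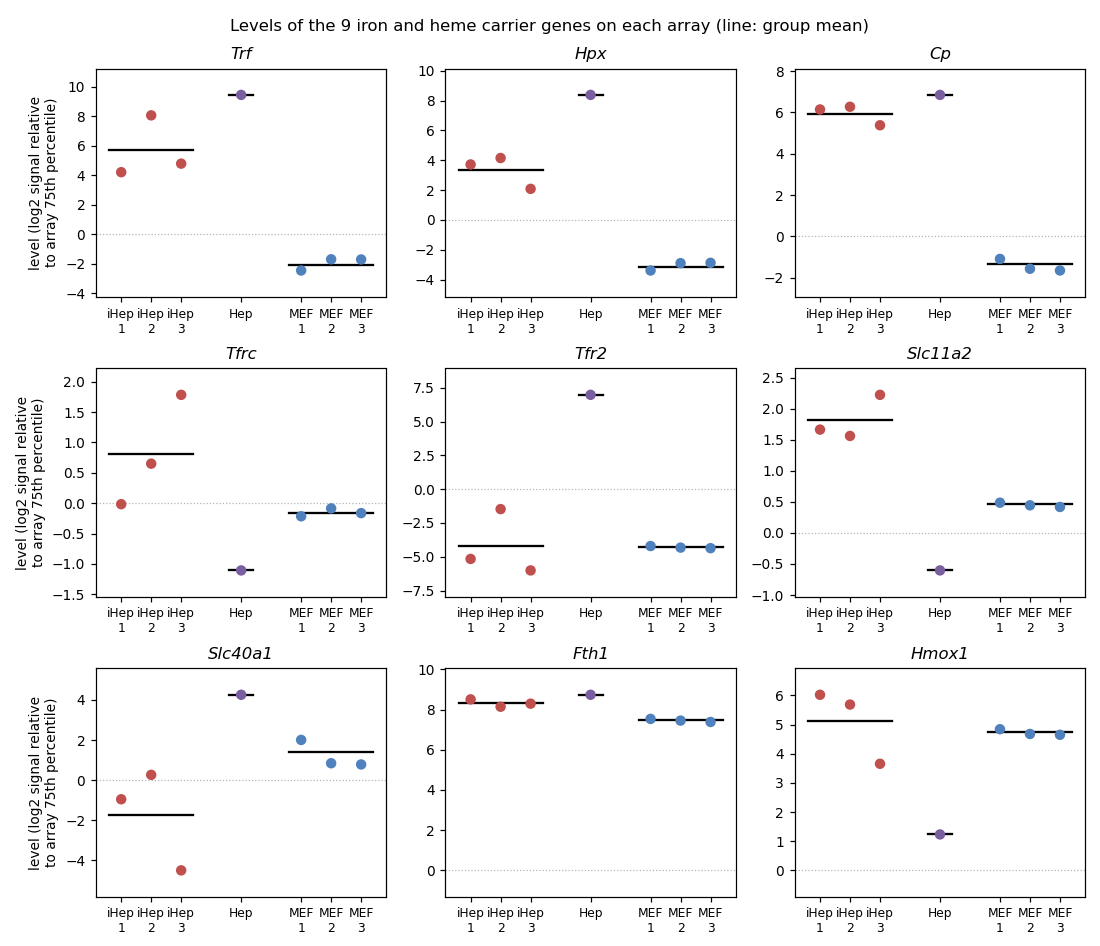
Level of each of the 9 genes (vertical axis, log2, with the 75th percentile of the array at 0 and a separate range per panel) on the 3 iHep arrays (red), the hepatocyte array (purple) and the 3 MEF arrays (blue). Black lines are group means, with MEF 2 and MEF 3 counted once. Trf, Hpx and Cp stand apart from MEF on all iHep arrays, while Tfr2 and Hmox1 in iHep lie on both sides of the MEF arrays.

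The plasma carriers Trf, Hpx and Cp were far higher in iHep than in MEF. Trf, read by a probe at chr9:103073389-103074004 (build mm8, minus strand, a span of 616 bases), had levels of 4.20, 8.05 and 4.78 in iHep types 1, 2 and 3, 9.44 in hepatocytes, and -2.46, -1.70 and -1.72 in MEF 1, 2 and 3. All iHep arrays lay above all MEF arrays, and type 2 lay closer to the hepatocyte array than to the other types. The mean was 5.68 ± 2.08 in iHep (SD, n = 3) and -2.09 ± 0.53 in MEF (SD, n = 2), a log2 difference of 7.76 ± 1.23 (SE), or 217-fold, with a limma adjusted p of 0.0136. The call was lost without MEF 1 (7.39, adjusted p = 0.0935) and with MEF 1 alone (8.14, adjusted p = 0.0765), and adjusted p ran between 0.00288 and 0.0935 over 17 alternatives. Hepatocytes exceeded MEF by 11.52 ± 1.65, or 2940-fold (adjusted p = 0.00416). Between iHep and hepatocytes the difference of -3.76 ± 1.55 did not pass (adjusted p = 0.101). Without iHep type 2 that difference was -4.95 and passed (adjusted p = 0.00387, against 0.00387 to 0.26 over 14 alternatives).

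Hpx, read at chr7:105465611-105465670 (mm8), had levels of 3.72, 4.15 and 2.08 in iHep types 1, 2 and 3, 8.38 in hepatocytes, and -3.39, -2.90 and -2.88 in MEF 1, 2 and 3. The 3 groups did not overlap, and iHep lay between the other two. iHep exceeded MEF by 6.46 ± 0.67 on the log2 scale, or 87.9-fold (adjusted p = 0.0044), and by 6.71 ± 0.94 with MEF 1 alone (adjusted p = 0.0372, against 0.000649 to 0.0425 over 17 alternatives). Hepatocytes exceeded MEF by 11.52 ± 0.89, or 2942-fold (adjusted p = 0.000702). iHep was below hepatocytes by a log2 difference of -5.07 ± 0.84, a 33.5-fold gap (adjusted p = 0.00749). These calls held in each of the 17 alternatives against MEF and each of the 14 against hepatocytes. Hpx has a single start in RefSeq's promoter table (build GRCm38.p6), and the 250 bases before it, chr7:105600117-105600366 on the minus strand, are shown because Hpx is the gene that separated all 3 groups. Capitals mark matches, on either strand, to TTGCNNAA, a paired form of the C/EBP site, and to TGACNNNGC, the core of the antioxidant response element.
Hpx promoter: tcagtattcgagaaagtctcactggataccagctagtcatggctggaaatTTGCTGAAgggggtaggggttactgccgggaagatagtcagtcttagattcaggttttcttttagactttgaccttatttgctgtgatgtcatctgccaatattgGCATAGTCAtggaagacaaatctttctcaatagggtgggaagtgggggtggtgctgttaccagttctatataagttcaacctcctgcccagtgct
The first match begins at position -200 and the second at -95 from the start. Of the 32851 promoter windows of this length in the table, 9.56% hold TTGCNNAA and 10.2% hold TGACNNNGC, so neither is rare, and a match is a description of the letters alone.

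Cp, the ferroxidase, was the plasma carrier with the least spread between iHep types. At chr3:20181226-20181285 (mm8), its levels were 6.14, 6.27 and 5.38 in iHep types 1, 2 and 3, 6.85 in hepatocytes, and -1.09, -1.56 and -1.65 in MEF 1, 2 and 3. All iHep arrays lay within 1.47 of the hepatocyte array on the log2 scale and far above MEF. iHep averaged 5.93 ± 0.48 (SD, n = 3) and MEF -1.35 ± 0.36 (SD, n = 2), and the difference was 7.28 ± 0.36, or 155-fold (adjusted p = 0.000723). With MEF 1 alone it was 7.02 ± 0.46 (adjusted p = 0.0098, the highest of the 17 alternatives, whose lowest was 5.61e-05). Hepatocytes exceeded MEF by 8.19 ± 0.48, or 292-fold (adjusted p = 0.000373). Between iHep and hepatocytes the difference was -0.92 ± 0.45 and did not pass (adjusted p = 0.149), and its sign turned with quantile normalization (0.07, adjusted p = 0.919, the highest of 14 alternatives, whose lowest was 0.108). In RefSeq's table Cp has a pair of starts, and the sites below lie before the downstream one. They are shown because of where their capitals fall, on a match to TTGCNNAA at chr3:19957169-19957198 and on overlapping matches to TATAAA, on both strands, at chr3:19957209-19957238 (GRCm38.p6, plus strand).
Cp C/EBP match: ttagttactcTTTTGCAAcattaaattgtg
Cp TATA match: aaatgaagccctaTTTATAAAattgcttgc
The matches begin at positions -70, -27 and -25, and 12.4% of all windows hold TATAAA. The motif list also held the HNF4 site CAAAGTCCA, found in 0.384% of all windows, and none of the 10 windows of these 9 genes in the table holds those letters. At so low a share a match in 10 windows would be rare in any case, so its absence is uninformative. RefSeq's table has windows for Cp, Hpx, Tfr2, Tfrc and Fth1, which is 5 of the 9 genes.

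The transferrin receptors behaved unlike each other. Tfrc, the receptor that brings transferrin into most cells, was read by a probe at chr16:32551916-32551975 (mm8) and had levels of -0.02, 0.65 and 1.78 in iHep types 1, 2 and 3, -1.11 in hepatocytes, and -0.22, -0.09 and -0.16 in MEF 1, 2 and 3. The iHep arrays were the higher ones and the hepatocyte array the lowest, with no overlap between groups. No comparison passed: the log2 difference was 0.98 ± 0.55 for iHep minus MEF (adjusted p = 0.259), -0.94 ± 0.74 for hepatocyte minus MEF (adjusted p = 0.328) and 1.91 ± 0.70 for iHep minus hepatocyte (adjusted p = 0.0733). The last of these passed without iHep type 1 (2.32, adjusted p = 0.0382), without iHep type 3 (1.42, adjusted p = 0.0343) and with the MEF arrays as 3 samples (1.91, adjusted p = 0.0445). Its adjusted p ran between 0.0343 and 0.127 over 14 alternatives. The summed level of 6 markers of dividing cells, all well above background on every array, was 21.7, 35.4 and 31.8 in iHep types 1, 2 and 3, 1.36 in hepatocytes and 30.2 to 32.1 in MEF. Their part in the Tfrc levels was not tested. A stretch of the Tfrc promoter at chr16:32608890-32608919 (GRCm38.p6, plus strand) is shown for its matches to ACGTG, the core of hypoxia response elements, and TGACGT, part of the cAMP response element, in capitals.
Tfrc site: gtgtACGTGcggaaggaagTGACGTagatc
These begin at positions -228 and -213 from the downstream RefSeq start. ACGTG is in 16.6% of all windows and TGACGT in 6.47%.

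Tfr2, the iron-sensing receptor of hepatocytes, was far higher on the hepatocyte array than on any other. At chr5:137817152-137817211 (mm8), it stood at -5.16, -1.48 and -6.01 in iHep types 1, 2 and 3, 6.98 in hepatocytes, and -4.21, -4.32 and -4.37 in MEF 1, 2 and 3. Type 2 lay above MEF and types 1 and 3 below it, so iHep and MEF overlapped. The difference between iHep and MEF was 0.06 ± 1.40 (adjusted p = 0.981), and it turned to -1.31 without type 2 (adjusted p = 0.0915) and to -0.01 with MEF 1 alone (adjusted p = 0.998). Over 17 alternatives adjusted p ran between 0.0915 and 0.998. Hepatocytes exceeded MEF by 11.25 ± 1.88, or 2437-fold (adjusted p = 0.00678), and iHep was below hepatocytes by a log2 difference of -11.19 ± 1.77, a 2338-fold gap (adjusted p = 0.00645). Both held in all 14 alternatives. The 250 bases before the most upstream of the Tfr2 starts in RefSeq's table, chr5:137569590-137569839 (GRCm38.p6, plus strand), are shown, as 1 of 3 windows for Tfr2. Capitals mark a match to ACGTG at position -72.
Tfr2 promoter: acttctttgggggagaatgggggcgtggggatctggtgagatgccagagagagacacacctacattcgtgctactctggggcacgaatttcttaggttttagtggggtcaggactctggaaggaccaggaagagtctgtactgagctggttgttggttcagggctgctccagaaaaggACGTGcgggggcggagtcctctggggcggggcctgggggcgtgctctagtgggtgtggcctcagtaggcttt
Neither TTGCNNAA nor TGACNNNGC is in this window. Its GC content is 58.4%, beside 54.0% for each of the other Tfr2 windows, 44.8% for the Hpx window and a median of 52.4% over all windows. Any part of these letters in the levels of Tfr2 or Hpx was not tested.

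**Figure D2:**
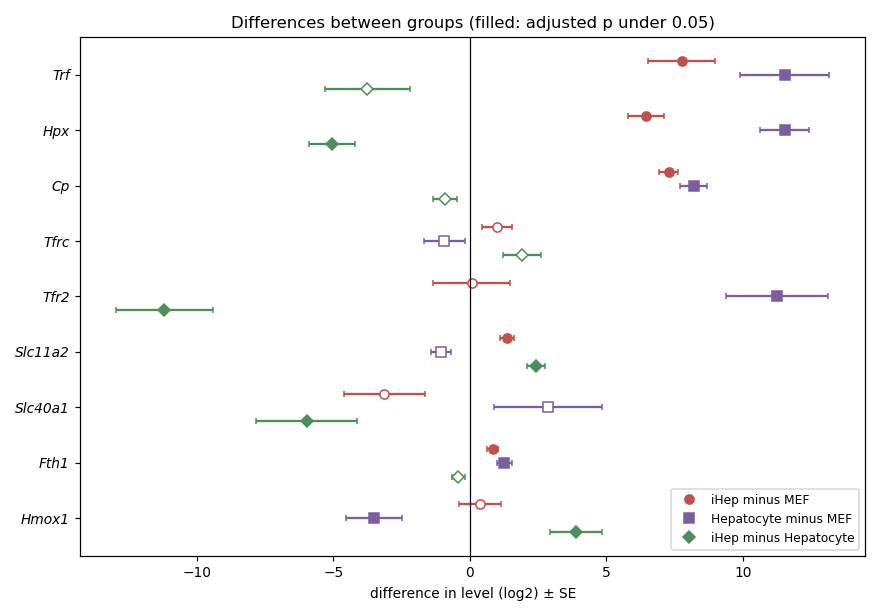
Difference in level between groups (horizontal axis, log2, with SE bars) for each of the 9 genes, for iHep minus MEF (red circles), hepatocyte minus MEF (purple squares) and iHep minus hepatocyte (green diamonds). Filled symbols have an adjusted p under 0.05. Trf, Hpx and Cp lie right of 6 for both comparisons with MEF, and Tfr2 lies at 11.25 for hepatocytes and 0.06 for iHep.

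Slc11a2, which carries ferrous iron out of endosomes and into cells, has 3 probes, and they disagree. The brightest, which stands for the gene, lies at chr15:100215936-100215995 (mm8, minus strand). It read 1.66, 1.56 and 2.22 in iHep types 1, 2 and 3, -0.60 in hepatocytes, and 0.49, 0.45 and 0.42 in MEF 1, 2 and 3. By this probe all iHep arrays lay above MEF and the hepatocyte array lay below. iHep exceeded MEF by 1.36 ± 0.26 on the log2 scale, or 2.56-fold (adjusted p = 0.0234), and hepatocytes by 2.42 ± 0.33, or 5.35-fold (adjusted p = 0.00427). Hepatocytes differed from MEF by -1.06 ± 0.35, which did not pass (adjusted p = 0.0543).

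The other probes put the hepatocyte array at the top. The probe at chr15:100220950-100221009, designed on another transcript, read 0.09, 0.15 and -0.82 in iHep types 1, 2 and 3, 0.27 in hepatocytes, and -0.85, -0.83 and -0.80 in MEF 1, 2 and 3. Here types 1 and 2 lay near the hepatocyte array and type 3 within the MEF range. The probe at chr15:100238119-100238178 read -2.94, -2.81 and -2.68 in iHep types 1, 2 and 3, -2.47 in hepatocytes, and -3.05, -3.22 and -3.11 in MEF 1, 2 and 3, a narrower range in the same order of groups. By these probes the log2 difference was 0.64 and 0.30 for iHep minus MEF, 1.105 and 0.64 for hepatocyte minus MEF, and -0.47 and -0.34 for iHep minus hepatocyte. Slc11a2 is known to make transcripts with different ends, and the sources used here do not say which of them each probe reads. With the mean of the 3 probes, iHep minus hepatocyte was 0.54 (adjusted p = 0.0841, the highest of 14 alternatives, whose lowest was 0.0011) and hepatocyte minus MEF turned to 0.23 (adjusted p = 0.418). On the brightest probe, the iHep call against MEF was lost without MEF 1 (1.39, adjusted p = 0.117), with MEF 1 alone (1.33, adjusted p = 0.123) and without iHep type 1 (1.43, adjusted p = 0.059), where 17 alternatives spanned adjusted p of 0.0043 to 0.123. Hepatocyte minus MEF passed without iHep type 3 (-1.06, adjusted p = 0.0172) and with the MEF arrays as 3 samples (-1.05, adjusted p = 0.0213), where 14 alternatives spanned 0.0172 to 0.418.

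**Figure D3:**
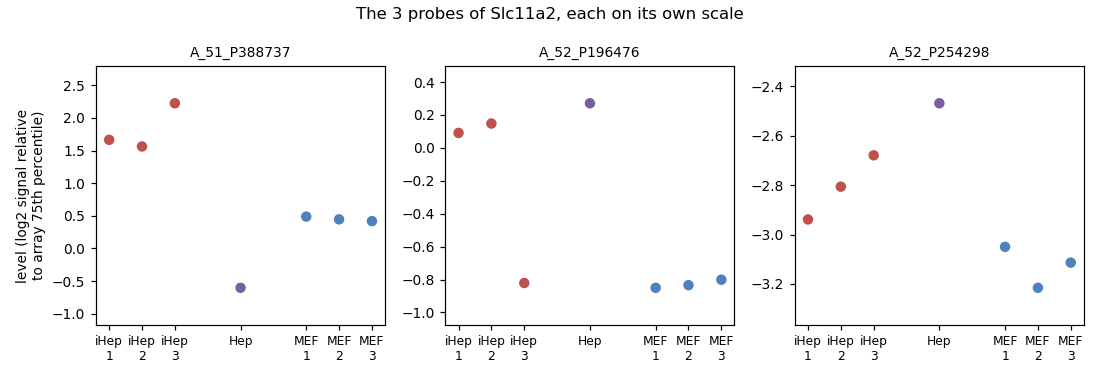
Level (vertical axis, log2, with the 75th percentile of the array at 0 and a separate range per panel) of the 3 Slc11a2 probes on the iHep (red), hepatocyte (purple) and MEF (blue) arrays, in genome order from left to right. The hepatocyte array is lowest at -0.60 for the left probe and highest at 0.27 and -2.47 for the other two.

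Slc40a1, ferroportin, is the only known exporter of iron from cells and is strong in liver macrophages as well as hepatocytes. At chr1:45852956-45853015 (mm8), it stood at -0.95, 0.27 and -4.50 in iHep types 1, 2 and 3, 4.26 in hepatocytes, and 2.01, 0.84 and 0.78 in MEF 1, 2 and 3. All iHep arrays lay below all MEF arrays, and the hepatocyte array lay above both. The types differed by up to 27.1-fold, the widest range among the 9 genes. iHep was below hepatocytes by a log2 difference of -5.99 ± 1.87, a 63.4-fold gap (adjusted p = 0.0485). That call was lost in 6 of 14 alternatives, among them quantile normalization (-5.49, adjusted p = 0.0588), without MEF 1 (-5.99, adjusted p = 0.0878), with MEF 1 alone (-5.99, adjusted p = 0.0878) and without iHep type 1 (-6.37, adjusted p = 0.0807), with adjusted p between 0.0128 and 0.0878. The differences from MEF were -3.14 ± 1.48 for iHep (adjusted p = 0.19) and 2.85 ± 1.98 for hepatocytes (adjusted p = 0.273), and neither passed. Without iHep type 3, hepatocyte minus MEF passed at the same difference of 2.85 (adjusted p = 0.0377, the lowest of 14 alternatives, whose highest was 0.511). Of 11 macrophage markers, 9 were called lower in iHep than in hepatocytes, beside 27.1% of all genes tested. In iHep against MEF 7 were called lower, beside 13.2%, and 0 were higher in either comparison. Between hepatocytes and MEF 4 were called higher (Marco, Clec4f, Vsig4 and Cd5l), beside 28.4% of all genes. Cd68 alone was called lower, by a log2 difference of -3.24, beside 25.1%, and the median of the 11 was 0.10. Clec4f and Vsig4 entered the test only through the hepatocyte array, so their calls in both comparisons with hepatocytes add no support. The summed level of the 11 markers, most of it from Cd5l and Clec4f in hepatocytes, was 0.326, 0.541 and 0.378 in iHep types 1, 2 and 3, 15.9 in hepatocytes, and 4.82, 8.61 and 8.30 in MEF 1, 2 and 3. All 11 were well above background in hepatocytes and 9 or 10 in each MEF array, against 3 or 4 in each iHep array, where Adgre1, C1qa, C1qc, Clec4f, Vsig4, Cd5l and Ptprc were not well above background on any array. MEF 1, the fibroblast array with the highest Slc40a1 level, had the lowest macrophage sum of the 3. The 5 endothelial markers summed to 0.103 to 0.104 in iHep, 5.92 in hepatocytes and 0.896 to 1.54 in MEF. All 5 were called higher in hepatocytes than in MEF, beside 28.4% of all genes. Pecam1 and Cdh5 entered the test only through the hepatocyte array, so their calls add no support. The 4 stellate markers summed to 0.109 to 1.44 in iHep, 1.40 in hepatocytes and 0.575 to 1.37 in MEF. The iHep sum came mostly from Rgs5, at -1.27, 0.497 and -3.71 in types 1, 2 and 3 and -2.115 in hepatocytes. Lrat and Reln stayed at background in every iHep type, at least 15.1-fold and 61.0-fold lower than in hepatocytes. Des and Rgs5 were not called between iHep and hepatocytes. The part of RNA from these cell types in the Slc40a1 levels was not tested, and in these bulk samples fewer cells of a type cannot be told apart from less RNA per cell.

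Fth1, the ferritin heavy chain, had a narrow range. At chr19:10052040-10052099 (mm8), it stood at 8.50, 8.14 and 8.29 in iHep types 1, 2 and 3, 8.73 in hepatocytes, and 7.53, 7.45 and 7.38 in MEF 1, 2 and 3. The groups did not overlap, and MEF was the lowest. iHep exceeded MEF by 0.84 ± 0.20 on the log2 scale, or 1.79-fold (adjusted p = 0.04), and hepatocytes exceeded MEF by 1.26 ± 0.27, or 2.39-fold (adjusted p = 0.014). The iHep call was the least firm of the 5. It was lost without MEF 1 (0.90, adjusted p = 0.141), with MEF 1 alone (0.78, adjusted p = 0.176), without iHep type 1 (0.74, adjusted p = 0.115), type 2 (0.92, adjusted p = 0.0756) or type 3 (0.85, adjusted p = 0.0618), with the slide as a block (0.78, adjusted p = 0.0557) and without the filter on dim probes (0.84, adjusted p = 0.0795), where 17 alternatives spanned adjusted p of 0.00696 to 0.176. With quantile normalization hepatocyte minus MEF was 0.13 (adjusted p = 0.663), and with MEF 1 alone it was 1.199 (adjusted p = 0.056), where 14 alternatives spanned 0.00288 to 0.666. Between iHep and hepatocytes the difference of -0.42 ± 0.25 did not pass (adjusted p = 0.216), and quantile normalization turned it to 0.72 and past the threshold (adjusted p = 0.0456, against 0.0456 to 0.445 over 14 alternatives). The direction between iHep and hepatocytes therefore depends on the scaling.

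Hmox1, the inducible enzyme that opens the heme ring and frees its iron, was lower in hepatocytes than in the cultured cells. At chr8:77996380-77996439 (mm8), it stood at 6.02, 5.69 and 3.66 in iHep types 1, 2 and 3, 1.23 in hepatocytes, and 4.84, 4.68 and 4.65 in MEF 1, 2 and 3. Types 1 and 2 lay above MEF and type 3 below, so iHep and MEF overlapped, and the hepatocyte array lay below all others. Hepatocytes were below MEF by a log2 difference of -3.52 ± 1.02, an 11.5-fold gap (adjusted p = 0.0364), and iHep exceeded hepatocytes by 3.89 ± 0.96, or 14.8-fold (adjusted p = 0.0247). The first call was lost without MEF 1 (-3.43, adjusted p = 0.117) and with MEF 1 alone (-3.61, adjusted p = 0.103), in a range of 0.00171 to 0.117 over 14 alternatives. The second was lost without MEF 1 or with it alone (3.89, adjusted p = 0.0557 in both) and without iHep type 2 (3.61, adjusted p = 0.0537), in a range of 0.00139 to 0.0557. Against MEF, iHep differed by 0.37 ± 0.76 (adjusted p = 0.758). That difference was 1.102 and passed without type 3 (adjusted p = 0.0355), and it was -0.08 without type 1 (adjusted p = 0.958, the highest of 17 alternatives). The part of macrophage RNA, by the marker values given for Slc40a1, in the Hmox1 levels was not tested.

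The group means fell in 3 orders. For Trf, Hpx and Cp it ran hepatocyte, iHep, MEF, and Hpx was the gene of these 3 in which both neighbouring pairs differed by the test. For Trf and Cp the difference between hepatocytes and iHep did not pass. Fth1 had the same order, with hepatocytes and iHep undivided by the test, and so did Tfr2, with iHep and MEF undivided. For Tfrc and Hmox1 the order was iHep, MEF, hepatocyte. Slc11a2, by its brightest probe, had this order too, with MEF and hepatocytes undivided. No neighbouring pair of Tfrc passed, and for Hmox1 MEF and hepatocytes did. For Slc40a1 the order was hepatocyte, MEF, iHep, with no neighbouring pair past the test and the 2 ends apart.

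The iHep types differed more in some of these genes than in others, with 1 array per type and so no test. The range between types was 27.1-fold for Slc40a1, 23.2-fold for Tfr2, 14.4-fold for Trf, 5.16-fold for Hmox1, 4.19-fold for Hpx, 3.48-fold for Tfrc, 1.86-fold for Cp, 1.58-fold for Slc11a2 and 1.29-fold for Fth1. Type 2 was the highest type for 5 genes (Trf, Tfr2, Hpx, Cp and Slc40a1), all of which have their highest group mean in hepatocytes. Fth1, whose highest mean is also in hepatocytes, was lowest in type 2. Type 3 was the lowest for 5 genes (Tfr2, Hpx, Cp, Slc40a1 and Hmox1) and the highest for Tfrc and Slc11a2. The hepatocyte marker sum was highest in type 2 and lowest in type 3, but single markers were mixed. Alb, Fgb and Cps1 were highest in type 2, and Apoa1, Ttr and Tat in type 1. Tat was lowest in type 2, at -2.57, against -0.27 in type 1 and -0.865 in type 3. Type 2 exceeded the MEF mean by 10.14 for Trf and 2.80 for Tfr2 on the log2 scale, where type 3 differed from it by 6.86 and -1.74.

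For Trf, Hpx and Tfrc the genes with the most similar levels over the 7 arrays were listed, as a description, since 3 groups and repeated fibroblast arrays make high correlations common. For Hpx they were Cbx7 (Pearson r = 0.999), Pipox (0.998) and Nr1h3 (0.998), and 376 genes had an r above 0.95. For Trf they were Fgfr3 (0.996), Egfl8 (0.993) and D230025D16Rik (0.99), with 247 genes above 0.95. For Tfrc they were Capn5 (0.99), Eml4 (0.983) and Pias1 (0.974), with 25 above 0.95.

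A wider list of 64 iron and heme genes was taken by role, and 62 of them were on the array and tested. Between iHep and MEF, 7 of the 62 were higher and 3 lower (median log2 difference 0.14), beside 23.3% of all genes called. Between hepatocytes and MEF, 33 were higher and 6 lower (median 1.14), and between iHep and hepatocytes 8 were higher and 33 lower (median -1.03), beside 53.5% and 49.2% of all genes. With MEF 1 alone 4 of the 62 were called between iHep and MEF, and with the MEF arrays as 3 samples 21 were.

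Among genes of uptake and reduction, 4 of 12 were higher and 1 lower in iHep than in MEF, beside 10.1% and 13.2% of all genes. Lcn2, which binds iron-loaded siderophores, stood at 4.33, 4.26 and 2.54 in iHep types 1, 2 and 3 and -4.05 in hepatocytes, while no MEF array had it well above background. It was at least 1001-fold higher in iHep than in MEF (adjusted p = 0.000986) and 217-fold higher than in hepatocytes (adjusted p = 0.00216). Scara5, a ferritin receptor, stood at 3.71, 3.59 and 4.88 in iHep types 1, 2 and 3, -2.53 in hepatocytes, and -0.99, -4.29 and -4.19 in MEF 1, 2 and 3. Its log2 difference was 6.68 ± 1.03 from MEF (adjusted p = 0.0129) and 6.59 ± 1.31 from hepatocytes (adjusted p = 0.0129), so it was high in iHep alone of the 3 groups. The metalloreductase Steap4 rose in iHep by 6.52 ± 1.02 over MEF (adjusted p = 0.0131), where 1 MEF array was well above background, and lactoferrin (Ltf) by at least 4.66-fold over MEF, where none was (adjusted p = 0.00632). Steap3, the reductase that works beside Tfrc in endosomes of red cell precursors, stayed at background in every iHep type and was at least 8.06-fold lower in iHep than in MEF (adjusted p = 0.00743). Timd2, a ferritin receptor in the mouse, was well above background in hepatocytes alone, at 3.25. It was at least 631-fold lower in iHep (adjusted p = 0.000196) and at least 727-fold higher in hepatocytes than in MEF (adjusted p = 0.000223). Timd2 entered the test only through the hepatocyte array, so these adjusted p-values add no support. Steap1, Steap2 and the ferric reductase Cybrd1 were higher in iHep than in hepatocytes, by 5.33 ± 0.33, 1.98 ± 0.37 and 5.35 ± 1.17 on the log2 scale (adjusted p = 0.000461, 0.0106 and 0.0172). Steap1 and Steap2 were lower in hepatocytes than in MEF, by log2 differences of -5.73 ± 0.35 and -1.88 ± 0.39 (adjusted p = 0.000408 and 0.0135).

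Of the 12 genes of the hepcidin axis, 6 were lower and 2 higher in iHep than in hepatocytes (27.1% and 22.1% of all genes), 6 were higher and 2 lower in hepatocytes than in MEF (28.4% and 25.1%), and 0 were higher and 1 lower in iHep than in MEF (10.1% and 13.2%; limma, 2 at an unadjusted p under 0.05). The calls in both comparisons with hepatocytes include Hamp, Hjv (hemojuvelin) and Tmprss6. These entered the test only through the hepatocyte array, so their calls and adjusted p-values against it add no support. Hamp, the gene of hepcidin, stood at 6.06 in hepatocytes, was well above background on 1 of 3 iHep arrays (type 2, at -5.91) and on no MEF array. iHep was below hepatocytes by a fitted log2 difference of -12.70 ± 0.55 (adjusted p = 0.00022), which takes the 2 arrays at background at their readings, and hepatocytes were at least 5088-fold above MEF (adjusted p = 0.000222). Between iHep and MEF, nearly all at background, the test did not pass (adjusted p = 0.0683), and no fold is given. Its near copy Hamp2 stood at -5.58, -4.76 and -2.89 in iHep types 1, 2 and 3, 3.75 in hepatocytes and -6.01 to -5.90 in MEF, and differed by -8.16 ± 1.03 between iHep and hepatocytes (adjusted p = 0.00325). Hamp and Hamp2 are close in sequence, so how far each probe reads the other is uncertain. Tmprss6, the protease that damps hepcidin, stood at 6.60 in hepatocytes and at -6.36 to -5.30 in iHep, of which 2 arrays were well above background, a fitted log2 difference of -12.35 ± 0.59 (adjusted p = 0.000259). Neo1, a coreceptor that binds hemojuvelin, was lower than in MEF in both iHep (-1.31 ± 0.19, adjusted p = 0.0101) and hepatocytes (-2.54 ± 0.25, adjusted p = 0.00136). The BMP receptor Bmpr1a was lower in hepatocytes than in MEF by a log2 difference of -1.16 ± 0.32 (adjusted p = 0.0312).

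None of the 9 heme synthesis genes was called between iHep and MEF (median log2 difference -0.03; limma, 1 at an unadjusted p under 0.05). In hepatocytes 7 of 9 were higher than in MEF (median 2.79), beside 28.4% of all genes, and 7 of 9 were lower in iHep than in hepatocytes (median -1.81), beside 27.1%. Alas1, the rate-limiting enzyme of heme synthesis in liver, stood at 4.25, 3.46 and 4.53 in iHep types 1, 2 and 3, 5.65 in hepatocytes and 2.78 to 2.92 in MEF. It was 2.96-fold lower in iHep than in hepatocytes (adjusted p = 0.0398), and its difference from MEF of 1.23 ± 0.36 did not pass (adjusted p = 0.0695). Fech, which puts iron into the ring, stood at 2.20, 2.14 and 1.93 in iHep types 1, 2 and 3, 4.999 in hepatocytes and 1.65 to 2.06 in MEF, and was 7.51-fold lower in iHep than in hepatocytes (adjusted p = 0.00133). Alas2, the form of red cell precursors, was well above background in hepatocytes alone, at 4.52, at least 1525-fold above iHep and at least 1757-fold above MEF (adjusted p = 0.000227 and 0.000229). Alas2 entered the test only because the hepatocyte array read it well above background, so these adjusted p-values add no support. The summed level of 6 erythroid markers was 0.159 to 0.65 in iHep, 0.735 in hepatocytes and 0.266 to 0.268 in MEF. Of these, Hba-a1 was at -2.40 and Klf1 at -2.25 in hepatocytes, while neither was well above background on any iHep array. The part of red cell precursors in the Alas2 level was not tested.

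In storage, the ferritin light chain Ftl1 stood at 7.01, 6.90 and 6.52 in iHep types 1, 2 and 3, 7.85 in hepatocytes and 7.15 to 7.30 in MEF. It was 2.06-fold lower in iHep than in hepatocytes (adjusted p = 0.0335), and its difference from MEF of -0.43 ± 0.23 did not pass (adjusted p = 0.232), where the heavy chain was called higher. In heme transport and breakdown, 2 of 13 genes were higher and 1 lower in iHep than in MEF, beside 10.1% and 13.2% of all genes, a share near that background. Haptoglobin (Hp), which captures free hemoglobin, stood at 7.55, 7.86 and 5.57 in iHep types 1, 2 and 3, 9.11 in hepatocytes, and 0.85, -2.88 and -2.94 in MEF 1, 2 and 3. It was 260-fold higher in iHep than in MEF (adjusted p = 0.0148) and did not pass between iHep and hepatocytes (-2.12 ± 1.65, adjusted p = 0.331), as Trf and Cp did not. Ambp, whose product includes a heme-binding plasma protein, stood at -7.46, -4.79 and -3.47 in iHep types 1, 2 and 3, 9.87 in hepatocytes and -7.16 to -6.02 in MEF, and was well above background in types 2 and 3 and in MEF 2 and MEF 3. With the arrays at background included at their readings, its fitted log2 difference was -15.11 ± 1.54 between iHep and hepatocytes (adjusted p = 0.00173) and 16.55 ± 1.63 between hepatocytes and MEF (adjusted p = 0.00137). Lrp1, the receptor for heme bound to hemopexin, was lower in iHep than in hepatocytes (-2.02 ± 0.31, adjusted p = 0.00573) and than in MEF (-1.43 ± 0.24, adjusted p = 0.0164). The heme exporter Flvcr1 was lower in hepatocytes than in MEF by a log2 difference of -1.07 ± 0.32 (adjusted p = 0.0401).

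**Figure D4:**
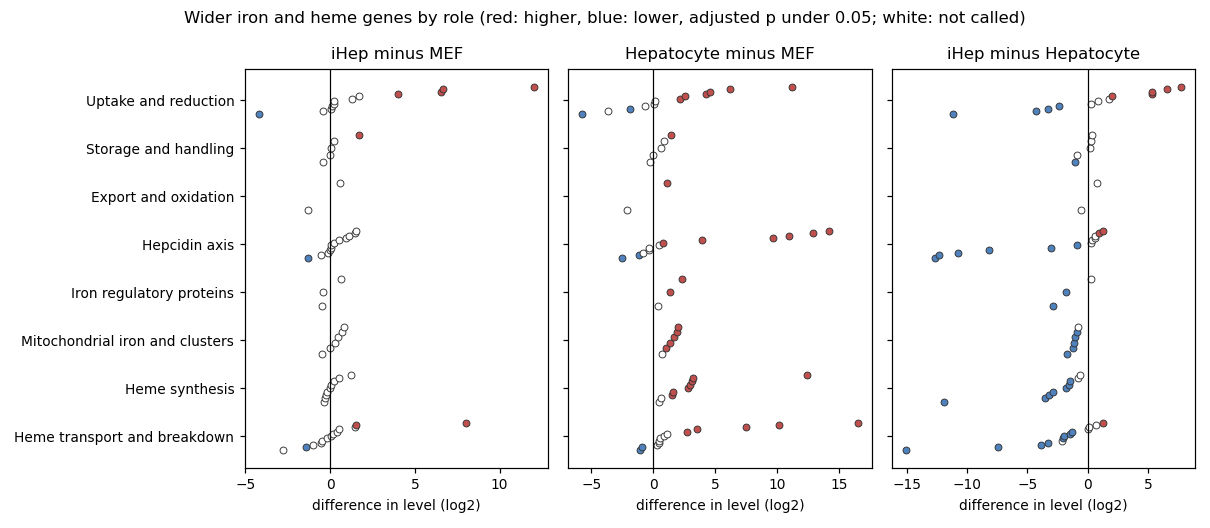
Log2 difference in level (horizontal axis) of the 62 wider iron and heme genes by role, each point 1 gene, for iHep minus MEF, hepatocyte minus MEF and iHep minus hepatocyte. Red points were called higher and blue points lower at an adjusted p under 0.05, and white points were not called. In heme synthesis 0 of 9 are coloured for iHep minus MEF and 7 of 9 in each of the other panels.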

How the data were processed

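Cy3-labelled RNA of 7 samples was read on 7 Agilent arrays. The authors deposited scanner files made with Agilent Feature Extraction 9.5.1.1, per the submitters' processing notes, whose processed intensity is already background-corrected, per the file headers, with 0 or 1 flags per spot, another unit. The authors also deposited a table of linear intensity, whose columns all have a median of 66.4 and correlate with the log2 scanner signal of the same array at r = 0.9988 to 0.9999 over probes, so scale and direction are settled; how it was normalized was not stated, and it served as an alternative.

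From the deposited intensity, log2 signal minus the array's 75th percentile was taken, outlier spots were left out, repeated spots averaged, and the brightest probe stood for a gene. A gene was tested if each array of some group had it well above background (19135 of 27583). Among genes of the wider list, Alas2, Timd2, Hamp, Hjv, Tmprss6, Ambp and Cd163 passed only through the hepatocyte array, and Ltf only through iHep. Of the macrophage and endothelial markers, Clec4f, Vsig4, Pecam1 and Cdh5 also passed only through the hepatocyte array. Tests of all these genes with the group they passed through add no support beyond the levels. Of the probes, 24358 were named by accession, 6292 by symbol and 2422 by synonym in RefSeq's table, and 8066 kept the file's name or ID. The share of spots well above background was 60.9% to 69.3%, and the number of arrays limits the precision. limma 3.58.1 in R 4.3.3 fitted all 3 groups, with Benjamini-Hochberg adjustment and calls at 0.05; the hepatocyte array is assumed to vary like the other groups, and p-values measure the spread between these samples, which may be technical. The fit was tested on simulated data for iHep minus MEF alone, which does not cover the comparisons with hepatocytes. A fold written "at least" uses the lowest signal well above background. A marker sum adds linear levels. The 9 genes, the wider list and the markers were chosen with earlier results of these data known. Of the wider list, the up to 5 largest called rises and falls per comparison are named, with Hamp, Hamp2, Ftl1, Hp, Alas1 and Fech. Alternatives covered background, scaling, filter, probe choice, fibroblast replicates, slide and each array left out. The block fits kept MEF 2 and MEF 3 as separate samples and left out the hepatocyte array. For iHep minus MEF, the fit within slide 1 equals that without MEF 2 and 3. For iHep minus hepatocyte, the fit without MEF 1 equals that with MEF 1 alone. The alternatives of a comparison are therefore not all separate.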

Additional observations from a re-analysis of the deposited data

How the results depend on the processing

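Trf, Hpx, Cp and Tfr2 kept their calls between hepatocytes and MEF in all 14 alternatives, Hpx and Cp theirs between iHep and MEF in all 17, and Hpx and Tfr2 theirs between iHep and hepatocytes in all 14. Between iHep and MEF, 4459 genes were called. With 3 separate MEF arrays 7307 were, within slide 1 1669, and over the fits that left out arrays 1642 to 4648. Of the 9 genes 5 were called, 2 within slide 1 and 2 to 5 over the fits that left out arrays, and of the wider list 10, with 21, 4 and 4 to 12 in the same order. Between iHep and hepatocytes 5 of the 9 genes were called, and 3 to 6 over the fits that left out arrays. The lower counts without MEF arrays come with fewer fibroblast samples; the cause of the other shifts was not tested.

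The labels share the numbers 1 to 3 between iHep and MEF, but deviations of same-numbered arrays did not go together, and the iHep numbers name types. With a replicate block, 5449 genes, 5 of the 9 genes and 16 of the wider list were called between iHep and MEF. With the slide as a block 4384 genes and 4 of the 9 were called.

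Differences that changed sign were, for iHep minus MEF, those of Tfr2 and Hmox1. Tfr2 was -0.008 within slide 1, with the slide as a block and without MEF 2 and 3, which share the same estimate. Over the fits that left out arrays, Tfr2 ran from -1.31 to 0.957 and Hmox1 from -0.081 to 1.102. For hepatocyte minus MEF, Slc11a2 was 0.23 with the mean of probes. For iHep minus hepatocyte, Cp was 0.067 and Fth1 0.717 with quantile normalization, and 0.071 and 0.718 in the authors' values. Quantile normalization set the median of all genes at -0.002 in place of 0.145 for hepatocyte minus MEF and at 0.024 in place of -0.174 for iHep minus hepatocyte. The hepatocyte group has 1 array on a slide of its own, so its own spread is unknown. Fibroblast samples count 2, which limits every comparison with MEF.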

Other observations

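A further probe lies beside Hmox1 at chr8:77992258-77992317 (mm8, plus strand), on a transcript that the array names as TC1637468. The array's description of it holds the entry HMOX1_MOUSE, but it was not counted as a probe of Hmox1. It was not well above background on any of the 7 arrays.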
